A study of Homo sapiens with 4 samples.

Results

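The genes described here are 10 components of signalling by KIT, the receptor for stem cell factor: KIT itself, GAB2, GRB2, SOS1, PTPN11, PIK3R1, LYN, CBL, STAT5A and STAT5B. Every H4K20me1 peak whose nearest gene was among them was taken, which gave 64 of the 25514 peaks in the table, and each of the 10 genes had at least 1. Of these, 63 lay in a gene or its promoter and 1, beyond the end of KIT, was distal intergenic. The genes were chosen by their role, with measured values known: GAB2 was listed because it was among the genes with the highest log2 fold changes. The fold changes below are therefore a description of the members and were not tested.

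H4K20me1, histone H4 monomethylated at lysine 20, was profiled by CUT&Tag, in which an antibody guides a transposase to cut and tag the chromatin that carries the mark. The cells were Kasumi-1, an established human acute myeloid leukemia line with the fusion of RUNX1 and RUNX1T1. Of the 4 libraries, 2 were labelled SETD8 knockout (CRISPR/Cas9, guide sgSETD8) and 2 were labelled WT with the guide sgNT. SETD8, also called KMT5A, is the enzyme that writes this mark. The labels do not say whether "#2" in a title marks a second guide or a repeat, whether libraries came from separate cultures, or whether a clone or a pool of edited cells was used. The treatment field of every library names the knockout, the WT libraries included.

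The table holds 1 column of log2 scaled reads for each group, not for each library. The comparison is named as treated against control, but no header says which group each column holds, so the columns are called first-listed and second-listed. A log2 fold change is the first-listed minus the second-listed value. There was no replicate check, and an interval given below is an exact Clopper-Pearson 95% interval for the ratio of reads, and it covers counting error alone. Such intervals are too narrow if both ends of a fragment were counted, and among peaks with 2 to 7 reads, even numbers made up 75.5% of first-listed and 86.9% of second-listed values. All peaks together held 2791207 first-listed and 2682916 second-listed reads, with a median of 72 per peak in each column. With no spike-in used here, a uniform change of the mark cannot show. Fewer cells with the mark and less mark per cell cannot be told apart. KMT5A itself had 489 first-listed and 422 second-listed reads, which checks neither the edit nor the labels. RUNX1 held 26 peaks, RUNX1T1 9 and CD34 2, while CD33, CD3E and GATA1 held none. PAX5 held 2 and ALB 1; a peak of this mark is not a measure of expression.

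KIT is a receptor tyrosine kinase of hematopoietic progenitors and mast cells, and it drives growth of Kasumi-1 cells. When its ligand joins a pair of receptors, they phosphorylate each other, and the phosphotyrosines recruit adaptors, kinases and phosphatases. GRB2 brings the exchange factor SOS1, which loads RAS with GTP. GAB2 is a docking protein that GRB2 carries to the receptor and that in turn holds the phosphatase PTPN11 (SHP2) and the regulatory subunit of PI3 kinase, PIK3R1. LYN is a SRC family kinase, CBL is a ubiquitin ligase that sends the activated receptor to degradation, and STAT5A and STAT5B are transcription factors activated by tyrosine phosphorylation. H4K20me1 is known to cover the bodies of many transcribed genes and the inactive X chromosome, and it rises through the cell cycle towards mitosis.

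The start regions of 4 members are shown because they bear on the values below: KIT and GRB2 held the deepest peaks, GAB2 the highest and SOS1 the lowest ratio. Each is the RefSeq window (GRCh38.p14) of 250 bases before to 50 after a gene start, 5′ to 3′ along the gene. The windows are KIT, chr4:54657707-54658006 (plus strand), GRB2, chr17:75405629-75405928 (minus), GAB2, chr11:78417771-78418070 (minus), and SOS1, chr2:39124819-39125118 (minus). Capitals mark bases that lie inside an H4K20me1 peak.
KIT: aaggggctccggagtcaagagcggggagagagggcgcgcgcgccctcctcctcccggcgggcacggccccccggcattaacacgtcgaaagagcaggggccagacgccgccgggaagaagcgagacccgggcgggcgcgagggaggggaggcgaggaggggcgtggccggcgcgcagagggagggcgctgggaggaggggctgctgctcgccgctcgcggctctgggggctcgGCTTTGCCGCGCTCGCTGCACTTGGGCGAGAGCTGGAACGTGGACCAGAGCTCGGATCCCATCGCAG
GRB2: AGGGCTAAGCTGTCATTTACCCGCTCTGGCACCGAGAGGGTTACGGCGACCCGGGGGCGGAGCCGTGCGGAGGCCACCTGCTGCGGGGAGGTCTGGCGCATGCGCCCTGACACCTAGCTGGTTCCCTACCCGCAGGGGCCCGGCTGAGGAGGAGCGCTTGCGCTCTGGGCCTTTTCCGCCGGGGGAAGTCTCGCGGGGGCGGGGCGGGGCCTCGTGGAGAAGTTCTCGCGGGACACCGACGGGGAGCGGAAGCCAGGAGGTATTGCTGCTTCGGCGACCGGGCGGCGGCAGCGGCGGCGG
GAB2: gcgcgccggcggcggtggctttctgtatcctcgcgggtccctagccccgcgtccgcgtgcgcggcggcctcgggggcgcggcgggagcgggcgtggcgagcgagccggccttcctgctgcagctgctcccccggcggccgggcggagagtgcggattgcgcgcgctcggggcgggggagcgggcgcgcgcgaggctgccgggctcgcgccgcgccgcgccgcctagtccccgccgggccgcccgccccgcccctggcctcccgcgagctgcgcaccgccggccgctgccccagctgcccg
SOS1: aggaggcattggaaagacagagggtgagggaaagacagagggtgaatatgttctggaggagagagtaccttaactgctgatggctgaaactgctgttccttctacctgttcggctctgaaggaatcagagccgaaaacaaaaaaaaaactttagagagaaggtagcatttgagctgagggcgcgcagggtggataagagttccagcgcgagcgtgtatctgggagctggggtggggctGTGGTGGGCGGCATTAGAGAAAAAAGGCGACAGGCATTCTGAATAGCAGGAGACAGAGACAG
The KIT peak began just before the gene start, so that 67 of 300 bases lay inside it, and in SOS1 62 of 300 did. The whole GRB2 window lay inside a peak, whereas the GAB2 window ended 757 bases before the first GAB2 peak. The GAB2 window held 58 CpG dinucleotides, and 99.8% of 35116 RefSeq promoter windows held fewer. KIT held 38, GRB2 35 and SOS1 9, against a median of 14.

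Motifs were searched on both strands in all 14 RefSeq windows found for 7 members (no window was used for PTPN11, CBL or LYN). TGTGGT, the core that RUNX factors recognise, was found in 1 window, that of SOS1 above, at position 238 from its 5′ end, where its last bases are the first capitals. It was in 13.1% of all windows. AGATAA, the motif of GATA factors, was found in a second, internal window of GAB2 and in 1 of PIK3R1, and in 10.3% of all windows. TTCNNNGAA, the STAT palindrome, was in 0 of 14 and in 7.66% of all. GGAA, the ETS core, was in each of the 14 and in 95.5% of all. These matches are descriptions of letters and not of binding.

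KIT carried some of the deepest H4K20me1 in the table. Its 10 peaks in the gene held 6354 first-listed and 7015 second-listed reads, and they covered 21.9% of the gene, against a median of 5.13% over the 7538 protein-coding genes with a peak. Per kb of gene the level was 76.8 first-listed and 81.5 second-listed scaled reads, rank 110 of those 7538 genes. The median gene had 3.87 first-listed and 3.57 second-listed. The peak over the KIT start (chr4:54657940-54661849, 3910 bp) had 1938 first-listed and 2283 second-listed reads, rank 3 of 25514 peaks by mean signal. Intron 1 of 20 held 6 peaks, of which the widest, 4424 bp, had 1418 first-listed and 1570 second-listed reads and ranked 7. The next had 1193 first-listed and 1088 second-listed reads and ranked 17. By reads per kb of peak the narrow peak that followed, 405 bp wide, ranked 5 of all peaks, with 659 first-listed and 773 second-listed scaled reads per kb. CHIC2, within 1 Mb of KIT, was deep as well, with 6114 first-listed and 5000 second-listed reads in 7 peaks. No input or DNA copy number was used here, so the KIT level was not adjusted for copies of the locus.

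The level was lower further along the gene. The 5 peaks centred within 30.2 kb of the start had 321 to 659 first-listed and 341 to 773 second-listed scaled reads per kb of peak. The 5 peaks further on, in introns 1, 6 and 7, had 140 to 256 first-listed and 115 to 267 second-listed. The last peak in the gene was centred 62.5 kb from the start in intron 7 of 20, and none was listed over the later exons, which encode the kinase domain. The distal intergenic peak, 161 kb from the start, had 54 first-listed and 47 second-listed reads.

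The KIT columns lay close together. The start peak gave a log2 fold change of −0.18 (−0.27 to −0.09), the third peak 0.19 (0.07 to 0.31) and the seventh −0.41 (−0.67 to −0.14), and the intervals of the other 7 peaks in the gene included 0. Of these 10 peaks, 8 were lower and 2 higher in the first-listed column. The summed reads gave −0.09 (−0.135 to −0.037), and without the start peak −0.04 (−0.10 to 0.02). In the authors' deposited table the smallest unadjusted p of a KIT peak was 0.261.

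**Figure D1:**
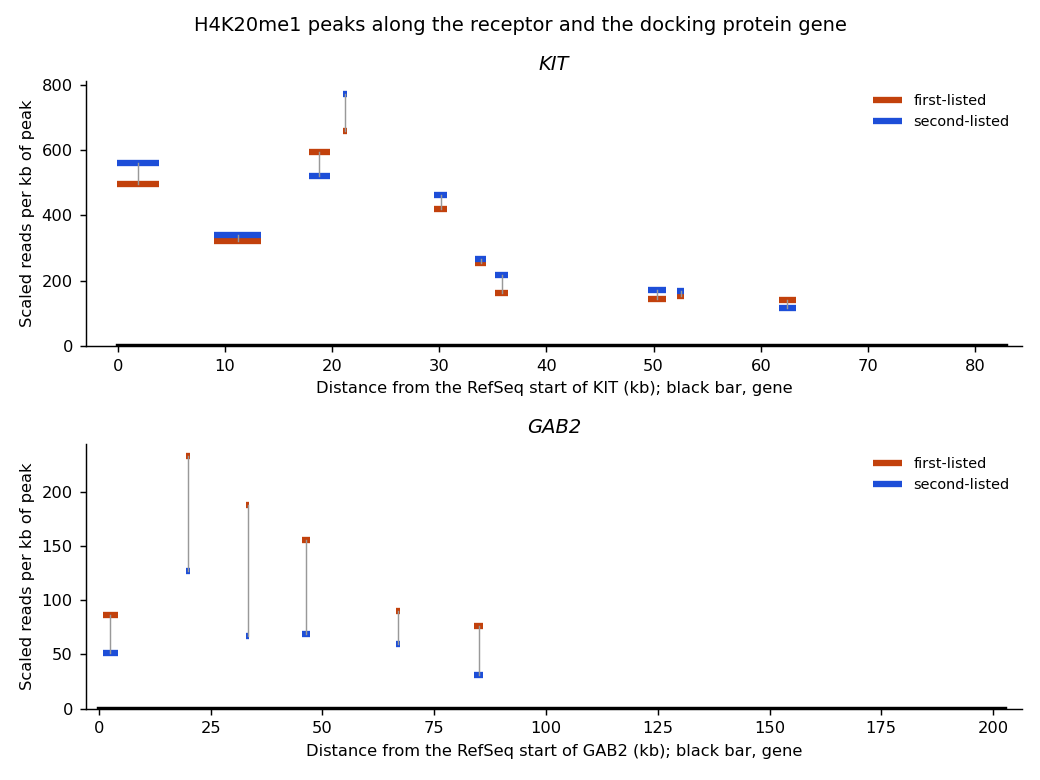
Peaks of KIT (top) and GAB2 (bottom) by distance from the gene start in kb; each bar spans a peak at its height in scaled reads per kb of peak, first-listed and second-listed column, joined by a grey line. KIT levels are highest within 30.2 kb of the start and its columns lie close, whereas all 6 GAB2 peaks are higher in the first-listed column.

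GAB2 was higher in the first-listed column in each of its 6 peaks. Every peak was above 0 in 103 (14.4%) of 715 genes with 5 or more peaks and at least 144 summed reads in either column. From the gene start inward the first-listed column had 307, 202, 132, 269, 85 and 156 reads in these peaks, and the second-listed column had 190, 115, 49, 123, 58 and 66. The log2 fold changes in that order were 0.76, 0.87, 1.49, 1.19, 0.61 and 1.31, and every interval lay above 0. The interval nearest to 0 was that of the fifth peak (0.11 to 1.12). All these intervals are too narrow if both ends of a fragment were counted. The outermost was a promoter peak and the innermost was centred 84.9 kb into the gene, 41.9% of the way along it, and none was listed further on. The summed 1151 first-listed and 601 second-listed reads gave 0.99 (0.85 to 1.14). After scaling both columns to the same sum of reads in peaks it was 0.88, and without the deepest peak 1.10.

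By this ratio GAB2 ranked 2 among 715 genes with 5 or more peaks and at least 144 summed reads in either column. A high rank was built into the choice of GAB2, which was listed for its fold changes. It came after FAM107B (1.27) and before TRIO (0.90). Among all 7538 genes with a peak, without these limits, GAB2 ranked 66 from the highest. The third GAB2 peak, chr11:78384222-78384922, ranked 74 of 25514 by fold change. In the authors' deposited table its unadjusted p was 0.000426 and its adjusted p 0.547. The unadjusted p of the other peaks in that table ran from 0.00141 to 0.144. In level GAB2 stood near the middle of the genes with a peak. It had 5.68 first-listed and 2.85 second-listed scaled reads per kb of gene, which brackets the median gene.

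GRB2, the adaptor, was the second most heavily marked member. Its 12 peaks held 3560 first-listed and 3776 second-listed reads over 17.5% of the gene, and the level of 40.6 first-listed and 41.4 second-listed scaled reads per kb of gene ranked 366 of 7538. The deepest peak, chr17:75393520-75394933, lay at an internal promoter 11.5 kb into the gene, with 867 first-listed and 1029 second-listed reads. It ranked 35 by mean signal and 7 by reads per kb of peak. The ratio over the gene was −0.03 (−0.09 to 0.04). Its peaks went both ways, with 4 above and 8 below 0, a lowest value of −0.31 and a highest of 0.50 (0.29 to 0.71) in an intronic peak of 446 first-listed and 328 second-listed reads. The peak over the RefSeq start of GRB2, which holds the capitals shown above, is assigned to the microRNA gene MIR3678 and so is not among the 64. It had 564 first-listed and 733 second-listed reads, a log2 fold change of −0.32. With it GRB2 came to −0.07 (−0.133 to −0.011).

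SOS1, which loads RAS, had less of the mark than the median gene with a peak. It was lower in the first-listed column at all 4 of its peaks. Of 1093 genes with 4 or more peaks and at least 144 summed reads in either column, 41 had no peak above 0. From the start inward the first-listed column had 33, 79, 105 and 41 reads, and the second-listed column had 63, 141, 150 and 59. The fold changes were −0.88, −0.78, −0.46 and −0.47, and 3 of the 4 intervals lay below 0. The summed 258 first-listed and 413 second-listed reads gave −0.62 (−0.85 to −0.39), and the level was 1.80 first-listed and 2.77 second-listed scaled reads per kb of gene, below the median gene. Among 1093 genes with 4 or more peaks and at least 144 summed reads in either column, only MYT1L was lower (−0.78). The limit of 4 peaks, in place of 5 for GAB2, is the number that SOS1 has. Among all 7538 genes with a peak, without these limits, SOS1 ranked 214 from the lowest. In the authors' deposited table the unadjusted p of the SOS1 start peak was 0.0383, and its adjusted p was 0.963.

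PTPN11, CBL and PIK3R1, whose products bind GAB2 or the activated receptor, had summed ratios above 0. PTPN11, the phosphatase, had 2 peaks in intron 1 and none in its promoter, with 298 first-listed and 248 second-listed reads in the outer and 202 first-listed and 138 second-listed in the inner peak. Its ratio was 0.43 (0.24 to 0.63). CBL, the ubiquitin ligase, had 4 peaks, all above 0 and with 575 first-listed and 476 second-listed reads in sum, a ratio of 0.33 (0.15 to 0.51). Its peak of 108 first-listed and 63 second-listed reads in intron 1 gave 0.83 (0.37 to 1.31), with an unadjusted p of 0.0437 in the authors' deposited table. PIK3R1, the PI3 kinase subunit, had 7 peaks with 1161 first-listed and 1088 second-listed reads, spread from the promoter to the 3′ UTR. Their fold changes ran from −0.02 to 0.36, and the summed reads gave 0.15 (0.03 to 0.27).

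LYN held the most peaks of any member, 16, over 15.4% of the gene. They had 2995 first-listed and 3020 second-listed reads, and 22.3 first-listed and 21.6 second-listed scaled reads per kb of gene. The ratio was 0.05 (−0.03 to 0.12), and single peaks ran from −0.48 to 0.54. The LYN promoter peak at the start had 224 first-listed and 306 second-listed reads (−0.39, −0.65 to −0.14). A second promoter peak, 60.2 kb into the gene, had 315 first-listed and 266 second-listed reads (0.30, 0.06 to 0.54). These LYN promoter peaks lay on opposite sides of 0, and the difference between them was not tested.

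The STAT5 genes, which neighbour each other on chromosome 17 and are closely similar in coding sequence, had 1 promoter peak each. STAT5A had 194 first-listed and 261 second-listed reads, a log2 fold change of −0.37 (−0.65 to −0.10). STAT5B had 88 first-listed and 85 second-listed reads, 0.11 (−0.34 to 0.55). STAT5B had the lowest level of all members, 0.987 first-listed and 0.916 second-listed scaled reads per kb of gene, whereas STAT5A had 7.92 first-listed and 10.2 second-listed.

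**Figure D2:**
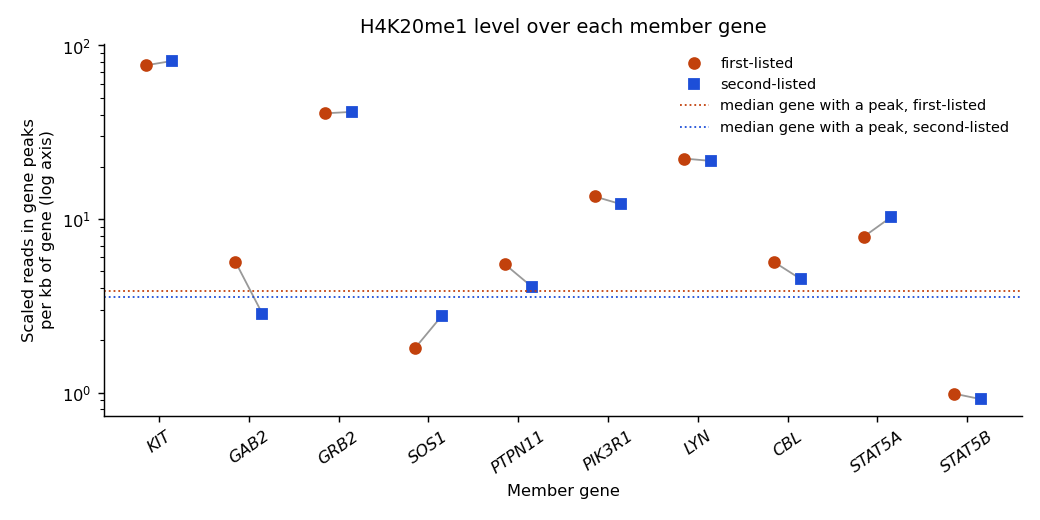
Level of H4K20me1 over each member gene, as scaled reads in its peaks per kb of gene on a log axis, first-listed (circles) and second-listed (squares) column; dotted lines mark the median gene with a peak. KIT, GRB2 and LYN stand highest, STAT5B lowest, and GAB2 has the widest gap between columns.

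The members differed widely in level per kb of gene, in the order KIT, GRB2, LYN, PIK3R1, STAT5A, GAB2, CBL, PTPN11, SOS1 and STAT5B by the first-listed column. GAB2 and CBL, at 5.68 and 5.65 scaled reads per kb of gene in that column, cannot be ordered within counting error, and PTPN11 followed them closely. In the second-listed column GAB2 (2.85) stood below CBL (4.49) and PTPN11 (4.08) and next to SOS1 (2.77). Taken as peaks, 58 of 64 (90.6%) were at or above the median signal of all peaks, 26 were in the top 10% by reads per kb and 6 in the top 1%. A member peak had a median of 200.5 first-listed and 164.5 second-listed reads. By class, 47 were intronic, 13 in promoters of up to 3 kb, 2 in a 3′ UTR and 1 in an exon. Of the 63 in genes, 42 (66.7%) were nearer to the gene start than to the gene end, as were 66.8% of 10652 peaks of genes of 50 kb or more.

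The 64 member peaks had a median log2 fold change of 0.105 (quartiles −0.18 and 0.285), beside 0.06 (−0.19 and 0.32) over all 25514. Of the 64, 36 were above 0, 27 below and 1 at 0, and 58.2% of all peaks were above 0. A fold change of 1 or more was listed for 3 member peaks, all in GAB2, and for 1.55% of all peaks. A value of −1 or less was listed for 0 members and 0.909% of all peaks. Counting intervals lay above 0 in 14 member peaks (all peaks 17.1%) and below 0 in 9 (all peaks 8.11%). Deeper peaks have narrower intervals, and member peaks had a median of 200.5 first-listed reads, beside 72 over all peaks. The interval shares were not matched for depth. By the unadjusted p of the authors' deposited table, 6 member peaks were higher at under 0.05 (5 of GAB2 and 1 of CBL), beside 3.37% of all peaks. The SOS1 start peak was the 1 lower one, beside 1.69%. The smallest adjusted p of a member in that table was 0.547, so 0 of the 64 passed 0.05. Without GAB2 the member median was 0.025, and by the same p of the authors' deposited table there was 1 peak left on each side.

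The promoter peaks of the members had a lower median than their intron peaks. The 13 promoter peaks had a median of −0.18, with 5 above and 8 below 0, whereas all 8739 promoter peaks in the table had 0.09. The 47 intron peaks had a median of 0.11, with 28 above and 18 below 0, and all 9273 intron peaks had 0.10. Promoter peaks of SOS1 (2), GRB2 (2), KIT, LYN and STAT5A were below −0.1, and the highest was that of GAB2 (0.76). Of the 8 promoter peaks below 0, 5 lay on the stretches of chromosomes 2 and 17 described below and 3 elsewhere. With the same sum of reads in both columns the medians were −0.29 for promoters and below 0 for introns too (−0.0041). These differences were not tested.

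**Figure D3:**
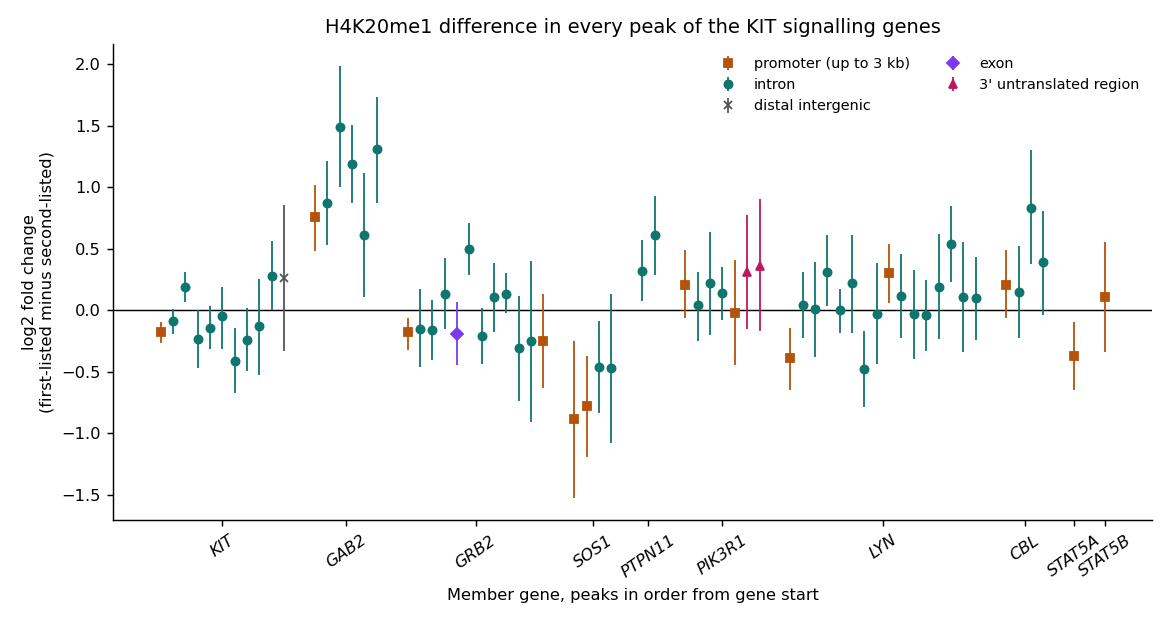
Log2 fold change (first-listed minus second-listed) of all 64 member peaks, grouped by gene and in order from the gene start; symbols give the annotation class and bars the exact 95% interval, counting error only. All 6 GAB2 peaks are above 0, all 4 SOS1 peaks below, and most peaks of the other genes lie nearer to 0.

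Summed by gene, 6 of 10 members were above 0 and 4 below, with a median of 0.08, beside 62.9% above 0 and a median of 0.10 over 7538 genes. The interval lay above 0 in 4 members (GAB2, PTPN11, CBL and PIK3R1), beside 24.2% of all genes. It lay below 0 in 3 (SOS1, STAT5A and KIT), beside 8.57%. These shares were not matched for depth either: the median gene had 1 peak, whereas members had up to 16. If both ends of a fragment were counted, the intervals are too narrow, and fewer members may lie clear of 0. Giving both columns the same sum of reads in peaks changed every value by −0.1141 and put the median of all peaks at −0.05. On that scale 4 members were above 0 and 6 below. LYN (−0.07) and STAT5B (−0.01) then lay below 0, the PIK3R1 interval included 0, and that of GRB2 (−0.14, −0.21 to −0.08) lay below it. The directions of GAB2, PTPN11, CBL, SOS1, STAT5A and KIT were the same on both scales.

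The chromatin around the members was compared with them over all peaks of other genes within 1 Mb of the gene. GAB2 stood above its surroundings: 23 such peaks had a median of 0.21 and ran from −0.18 to 0.53, below each of the 6 GAB2 peaks. The highest of them was in RSF1, a chromatin remodelling subunit, with 410 first-listed and 293 second-listed reads. The nearest genes with a peak, KCTD21 and TENM4, gave −0.14 (−0.60 to 0.32) and 0.19 (−0.03 to 0.41). Because GAB2 was listed for its high fold changes, its place above its neighbours follows in part from that choice.

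KIT stood below its surroundings. Of 19 peaks around it 17 were above 0, with a median of 0.36 and summed reads of 8492 first-listed and 6987 second-listed (0.34, 0.29 to 0.38), against −0.09 for KIT. CHIC2, with 7 peaks at −682 to −595 kb from the KIT start, had 6114 first-listed and 5000 second-listed reads (0.35, 0.29 to 0.40). Most reads around KIT were thus those of CHIC2, and the summed 0.34 rests largely on that gene. The median over 1058 chromosome 4 peaks without members was 0.06. Of the nearest genes, SRD5A3 gave −0.19 (−0.52 to 0.14). PDGFRA, a receptor of the same class, gave 0.09 (−0.14 to 0.32) over the 2 peaks in its gene or promoter. Both of these intervals include the KIT value of −0.09. The 3 PDGFRA peaks within 1 Mb of KIT, distal ones included, had 206 first-listed and 159 second-listed reads and gave 0.43 (0.13 to 0.74). The intervals of KIT and of the summed peaks around it do not overlap, but they hold no spread between libraries.

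SOS1 and GRB2 lay in stretches where most peaks were lower in the first-listed column. Around SOS1, 12 of 16 peaks were below 0, with a median of −0.145 and the lowest at −0.95 in SRSF7, a splicing factor gene (3 peaks, 311 first-listed and 512 second-listed reads, −0.66). By summed reads SOS1 gave −0.62 and the peaks around it −0.31 (−0.41 to −0.21). On chromosome 2 up to 90 Mb, 445 of 647 peaks without members were below 0, with a median of −0.19. The nearest genes MORN2 and THUMPD2 gave −0.04 (−0.67 to 0.59) and −0.26 (−0.55 to 0.03). Around GRB2, without the peak over its own start, 58 of 77 peaks were below 0, with a median of −0.29, and on chromosome 17 from 25 Mb 630 of 921 were, with a median of −0.18. The peaks of GRB2 itself had a median of −0.17. By summed reads GRB2 gave −0.03 and those 77 peaks −0.26 (−0.30 to −0.22). TMEM94, next to GRB2, gave −0.03 (−0.40 to 0.33). The part of these stretches in the values of SOS1, GRB2 and the STAT5 genes was not tested. No ground outside these data is given for the borders at 90 and 25 Mb, and the shares below 0 may depend on them. Leaving out the 4 members on them, which was decided once the values had been seen, the median of the other 46 member peaks was 0.17.

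Around the other members the peaks within 1 Mb had medians of 0.27 around PTPN11 (33 peaks), 0.165 around LYN (28) and 0.03 around CBL (44). Around STAT5A (38) and STAT5B (36), which share most of these peaks, they were 0.005 and −0.035. PIK3R1 had 1 such peak, in the cyclin B1 gene CCNB1 (46 first-listed and 31 second-listed reads, 0.63, −0.06 to 1.33). On the other side of PIK3R1, MAST4 gave 0.09. Next to PTPN11 stood RPL6, a ribosomal protein gene (0.64, 0.25 to 1.03), and RPH3A (0.16), and next to CBL stood HINFP (−0.15) and THY1 (0.10). Next to LYN stood TGS1 (0.34, 0.03 to 0.66) and PLAG1 (0.24, 0.05 to 0.42). STAT3, a transcription factor gene on the far side of STAT5A, gave −0.06 (−0.22 to 0.11), and GHDC on the far side of STAT5B −0.25 (−0.99 to 0.49).

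**Figure D4:**
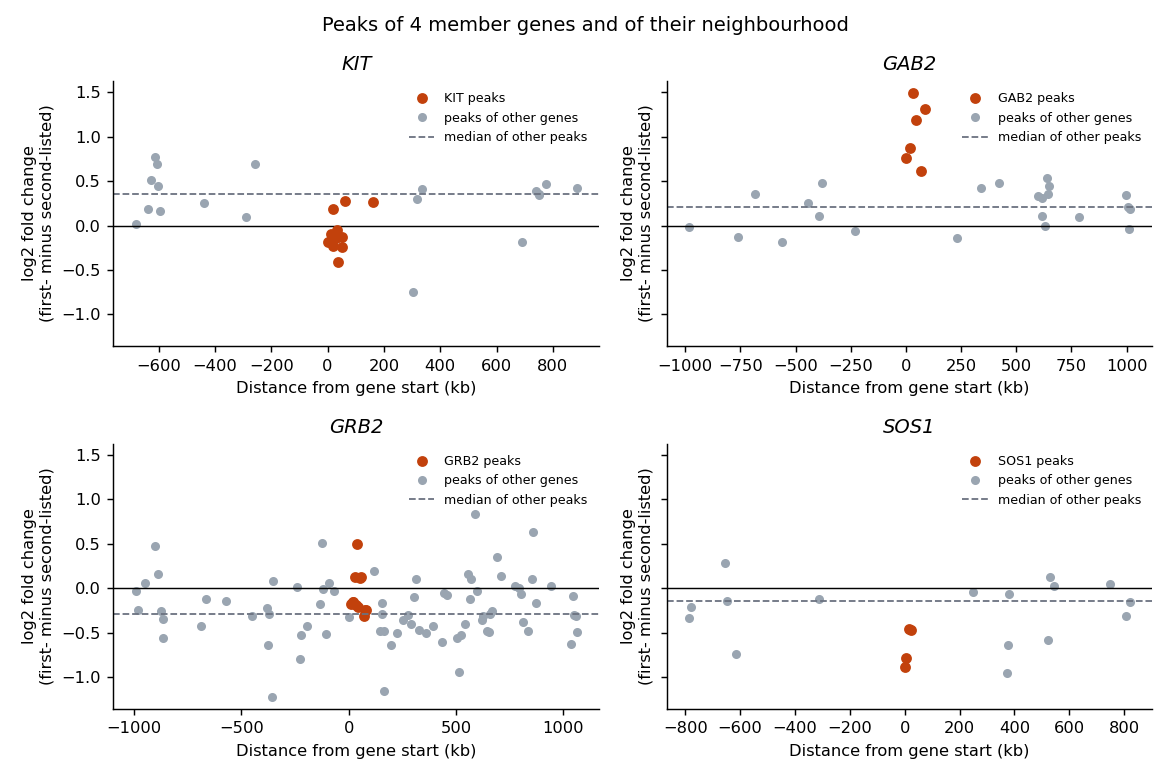
Log2 fold change (first-listed minus second-listed) of peaks of KIT, GAB2, GRB2 and SOS1 (orange) and of other genes within 1 Mb (grey), by distance from the gene start in kb; the dashed line is the median of the grey peaks, which include the peak over the GRB2 start assigned to MIR3678. GAB2 peaks lie above all grey peaks, all KIT peaks lie below the dashed line, and most peaks around GRB2 and SOS1 are below 0.

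The wider pathway was read from 70 further genes in 8 groups. Of these, 44 (62.9%) had a peak in the gene or its promoter, beside 37.6% of 20056 protein-coding genes. Among the 44, 31 (70.5%) were above 0 and 13 below, with a median of 0.22, beside 62.9% above 0 and a median of 0.10 over all genes. Intervals lay above 0 in 19 (43.2%), beside 24.2% of all genes, and below 0 in 3 (6.82%), beside 8.57%. The interval shares were not matched for depth. Peaks of the list had a median of 133 first-listed reads, beside 84 over all peaks in genes or promoters. No p is given for the list. With the same sum of reads in both columns the median was 0.10, with 27 above and 17 below 0, and the median of all genes was −0.02. By the unadjusted p of the authors' deposited table, 3 of their 123 peaks were higher at under 0.05, beside 3.37% of all peaks, and 0 were lower, beside 1.69%. The shares by this unadjusted p give no excess for the list. The 3 lay in promoters, and among them were the promoters of INPP5D, the SHIP1 phosphatase (116 first-listed and 65 second-listed reads, 0.89), and PIK3CB (102 first-listed and 56 second-listed reads, 0.92).

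Genes called highest or lowest below are so among those of their group with at least 144 summed reads in either column. Upstream, KITLG, the ligand of KIT, had 1 peak (150 first-listed and 143 second-listed reads, 0.13, −0.21 to 0.47), and FLT3 and PDGFRB had none. Among adaptors CRK was highest (0.38, 0.10 to 0.67) and VAV1, an exchange factor of blood cells with 7 peaks, lowest (0.00, −0.10 to 0.11). GAB1, the relative of GAB2, had 1 peak with 36 first-listed and 45 second-listed reads (−0.26, −0.94 to 0.40). SOS2, the relative of SOS1, had 77 first-listed and 54 second-listed reads (0.57, 0.05 to 1.10). Both had the opposite sign to the member they resemble, the GAB1 interval included 0, and these differences were not tested.

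Of the SRC family, YES1 gave 0.24 (0.16 to 0.32) and SRC 0.19 (0.00 to 0.38), and FYN and LCK had no peak. From RAS to ERK, 6 of 9 genes (66.7%) were above 0, near the 62.9% of all genes, with MAP2K2 highest (0.42, 0.15 to 0.68). HRAS, NRAS and MAPK3 had no peak. In the PI3 kinase branch 5 of 7 (71.4%) were above 0. AKT2 was highest (740 first-listed and 600 second-listed reads, 0.36, 0.20 to 0.52), and PIK3CG, the catalytic subunit of white blood cells, lowest (292 first-listed and 359 second-listed reads, −0.24, −0.47 to −0.01).

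STAT3 was the single JAK and STAT gene with that many reads. Both phospholipase C genes were below 0, PLCG1 at −0.24 (−0.61 to 0.12) and PLCG2 at −0.41 (−0.81 to −0.02). Among inhibitors 6 of 9 (66.7%) were above 0, again near the share of all genes. SOCS6, which binds KIT and dampens its signal, was highest (550 first-listed and 410 second-listed reads, 0.48, 0.29 to 0.67). SPRY1, an inhibitor of RAS signalling, was lowest (186 first-listed and 248 second-listed reads, −0.36, −0.64 to −0.08). SH2B3, the LNK adaptor that restrains cytokine receptors, was above 0 in 6 of 6 peaks (0.36, 0.26 to 0.47). Every peak was above 0 in 14.4% of 715 genes with 5 or more peaks and at least 144 summed reads in either column.

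**Figure D5:**
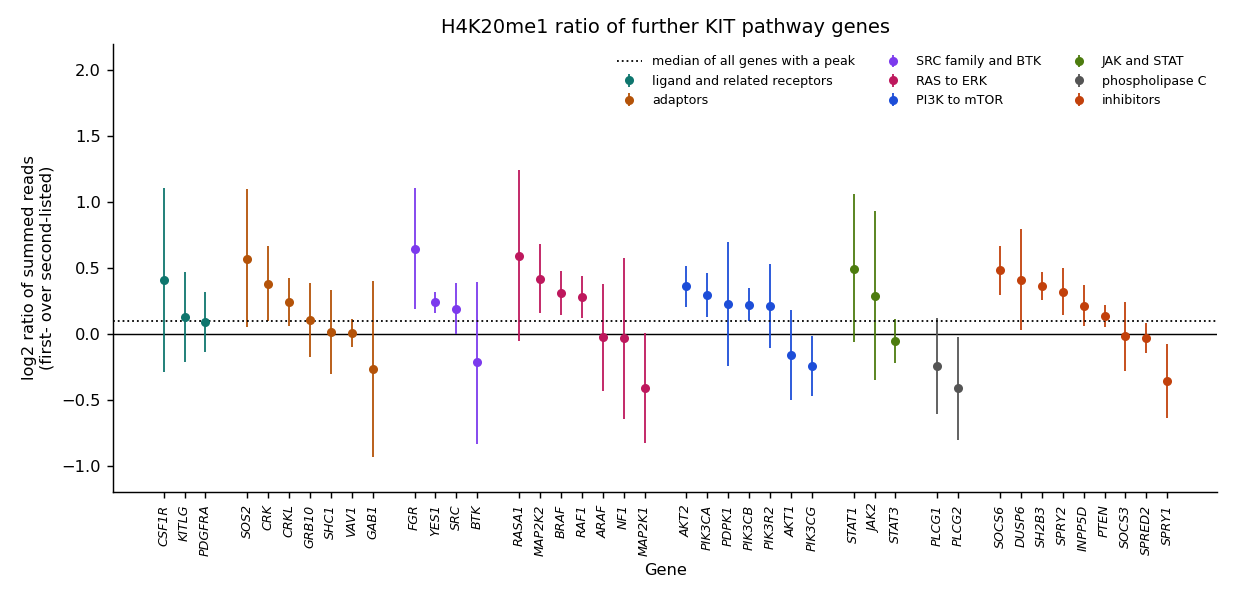
Log2 ratio of summed reads (first-listed over second-listed) for 42 genes of the wider KIT pathway list that had a peak, coloured by group, with exact 95% intervals (counting error only); the dotted line is the median of all genes with a peak. Of these 42, 29 are above 0, and FGR and SOS2 are among the highest.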

How the data were processed

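H4K20me1 was measured by CUT&Tag in 2 SETD8 knockout and 2 non-targeting control libraries of Kasumi-1 cells. The submitters' processing notes name hg38 as the build, with cutadapt, Bowtie2 and DESeq as tools. Not given in the sources used here are their versions, the peak caller, duplicate handling and how many libraries stand behind a value. The authors deposited 1 table, which gives for each peak the scaled reads of either group as log2 values, their log2 fold change and its p-value before and after adjustment. The headers are numbers, so this was read from the values: subtracting the second-listed column gives the fold change within 0.01 in all peaks.

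Low log2 values fitted whole reads plus a constant per column (0 and −0.057), so reads were recovered, exactly up to 144 and within 0.347% above. Reads were summed per gene over peaks in it or its promoter (up to 3 kb), by the annotated nearest gene. With 1 column per group no test was made, and p-values are the authors'. The interval calculation was tested on simulated data drawn as independent counts. That test held neither paired fragment ends nor spread between libraries, so it does not speak to either. Gene bodies, lengths and promoter sequences came from RefSeq tables of GRCh38.p14, without conversion of coordinates.

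Members and lists were chosen with earlier results of these data known. Named were all members, the highest and lowest gene of each pathway group among those with at least 144 summed reads in either column, and the nearest protein-coding gene with a peak on each side of a member; other genes, such as SOS2, GAB1, SH2B3, RSF1 and CHIC2, were picked after their values were seen. Some genes that this rule or the lists would name are left unreported. Alternatives covered scaling, peak assignment, promoter reach, low signal, thresholds and members left out. Python 3.11.15, numpy 2.4.6, pandas 2.3.3, scipy 1.17.1 and matplotlib 3.10.9 were used.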

Additional observations from a re-analysis of the deposited data

How the results depend on the processing

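The values here depend most on the threshold and on the scaling. At a log2 fold change of 0.5 in size 12 member peaks passed, in place of 3 at 1. No share of all peaks was taken at 0.5, nor at the unadjusted limit of 0.01 below. The member counts at those limits are therefore not compared with peaks in general. By the p-values of the authors' deposited table, 0 member peaks passed an adjusted p of 0.05 and 3 an unadjusted p of 0.01, in place of 7 at an unadjusted 0.05; these are stricter limits on the same values. The median over member peaks lay between 0.025 and 0.115 with each member left out in turn, the lowest without GAB2. It was −0.01 with equal reads in peaks, 0.05 without scaling and 0.07 without GAB2 and SOS1 (decided with the values in view). The ratio of KIT was −0.20 with equal reads and −0.14 without scaling, and that of GRB2 was −0.14 with equal reads. That of LYN was −0.07 with equal reads and −0.01 without scaling, below 0 in both. Assignment by host gene left all 64 peaks in place, and a promoter reach of 1 kb left 62 of the 63 peaks in genes or promoters. No paired analysis was possible because the table holds 1 column per group and no library columns. Depth limits STAT5B and STAT5A most, with 88 and 194 first-listed reads.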
